A study of Mus musculus with 15 samples.

Results

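The transcripts of 10 genes for enzymes of peroxide and antioxidant chemistry were examined in plasma extracellular vesicles (EVs) of mice. The genes were Prdx1, Prdx2, Prdx5, Prdx6, Gpx1, Gpx4, Cat, Sod1, Txn1 and Blvrb. They were taken by symbol from the count tables, 10 of 43472 gene rows, and all 10 had reads. RNA of EVs was sequenced in 15 libraries, 3 from wild type (WT) C57BL/6 mice, 6 from dystrophic mice that lack Sgcb (β-sarcoglycan, part of a complex that anchors the muscle fiber membrane), and 6 from hypertrophic mice with enlarged muscle. The labels give the hypertrophic genotype as MAGIC F1 and the study's methods as Mstn-null, so only the condition is named here. The labels give the source as serum and the methods as plasma. All mice were 3 to 6 months old. The EVs of 2 to 3 mice were pooled for a sample, so a library is not a single animal. The methods name 10 mice of each genotype for plasma collection. Separate pools of 2 to 3 mice for 6 samples would need more than 10. Whether samples shared animals is not stated, so the samples of a condition may not be independent. P-values therefore measure only the spread between these samples.

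Between 27227 reads (WT replicate 1) and 32563362 reads (dystrophic replicate 6) were counted on genes. A level is given in CPM, the reads of a gene scaled to a common total of reads on all gene rows. A gene with 0 reads may still be present at up to 3 counts. This limit was 110 CPM in WT replicate 1 and between 0.0921 and 9.13 CPM in the other libraries, and it covers counting error only because the RNA was amplified. Title and deposited counts carried different library numbers for 6 libraries, replicates 4 to 6 of the dystrophic and 1 to 3 of the hypertrophic condition. The numbers cross these conditions. For the enzyme genes, the tests of level and presence, the share of pairs with reads and mean CPM were also computed with these libraries exchanged and left out. Other results by condition were computed only with the labels as given. They include the order of genes per kilobase, the overlap of levels, the pooled Blvrb ratios and the further pathway genes. The targeted genes gave little check of the labels. Sgcb was at 0 in all WT-derived and dystrophic-derived libraries, so its absence does not mark the dystrophic ones, and Mstn was at 0 in every library. Only hypertrophic replicate 3 had Sgcb, at 365 CPM. This library is among the 6 of crossed numbers, and its reads go with its label, since an exchange would count it as lacking Sgcb. The other labels could not be checked in this way. Cd9, Cd63 and Cd81, the tetraspanins used as EV markers, together held 3924 to 33774 CPM. Markers of blood cells were present throughout. Those of erythroid cells (14 genes, of which WT-derived EVs held 13, dystrophic-derived EVs 13 and hypertrophic-derived EVs 11) summed to 23659 to 88882 CPM in WT-derived, 47981 to 159167 in dystrophic-derived and 32254 to 90339 in hypertrophic-derived EVs. Those of platelets (12 genes) summed to 25644 to 41283, 11952 to 29723 and 22567 to 45236 CPM in the same order, and those of leukocytes (8 genes) to 1847 to 6304 CPM over all libraries. Liver markers (6 genes) had unlike medians but stood at 0 in part of each condition's libraries, and a difference was not tested. They summed to 0 to 8.31 CPM (median 0) in WT-derived, 0 to 156 (median 29.8) in dystrophic-derived and 0 to 1275 (median 447) in hypertrophic-derived EVs. Skeletal muscle markers (7 genes) reached 237 CPM, with Myh4 at 0 in every library. In such bulk RNA, fewer vesicles from a cell type and less of an RNA in each vesicle cannot be told apart.

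Cells make superoxide and hydrogen peroxide in respiration, and red blood cells also make them when hemoglobin oxidizes. Superoxide dismutase turns superoxide into hydrogen peroxide, which catalase, peroxiredoxins and glutathione peroxidases then reduce to water. Thioredoxin recharges most peroxiredoxins, while glutathione serves the glutathione peroxidases, and red blood cells are rich in several of these enzymes, among them the products of Prdx2, Cat, Gpx1 and Blvrb.

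Prdx6, Gpx1 and Gpx4 were counted in all 15 libraries, and the other 7 genes were missing from some. Sod1 had reads in 13 libraries, Prdx1 and Cat in 12, Prdx5 in 11, Prdx2 and Txn1 in 10 and Blvrb in 9. Presence was close to all or none. Of the 150 pairs of a gene and a library, 28 had 0 reads, 4 had 1 or 2 reads, and 118 had at least 21 reads. In all 32 pairs with up to 2 reads, the limit of 3 counts lay below the gene's median level in the libraries where it had at least 10 reads, and in 27 of them below its lowest such level. After each library was sampled down to 27227 reads, 118 pairs still held reads. Genes within the range of mean levels of the 10, between 121 and 1188 CPM, had reads in every library in 80 of 880 cases (9.09%, the 10 genes among them), against 3 of 10 here. These 3 stood at the top of that range, with means of 1188 (Gpx4), 1090 (Prdx6) and 1008 CPM (Gpx1). The shares are thus not matched for level, and a part of level in the difference was not tested.

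**Figure D1:**
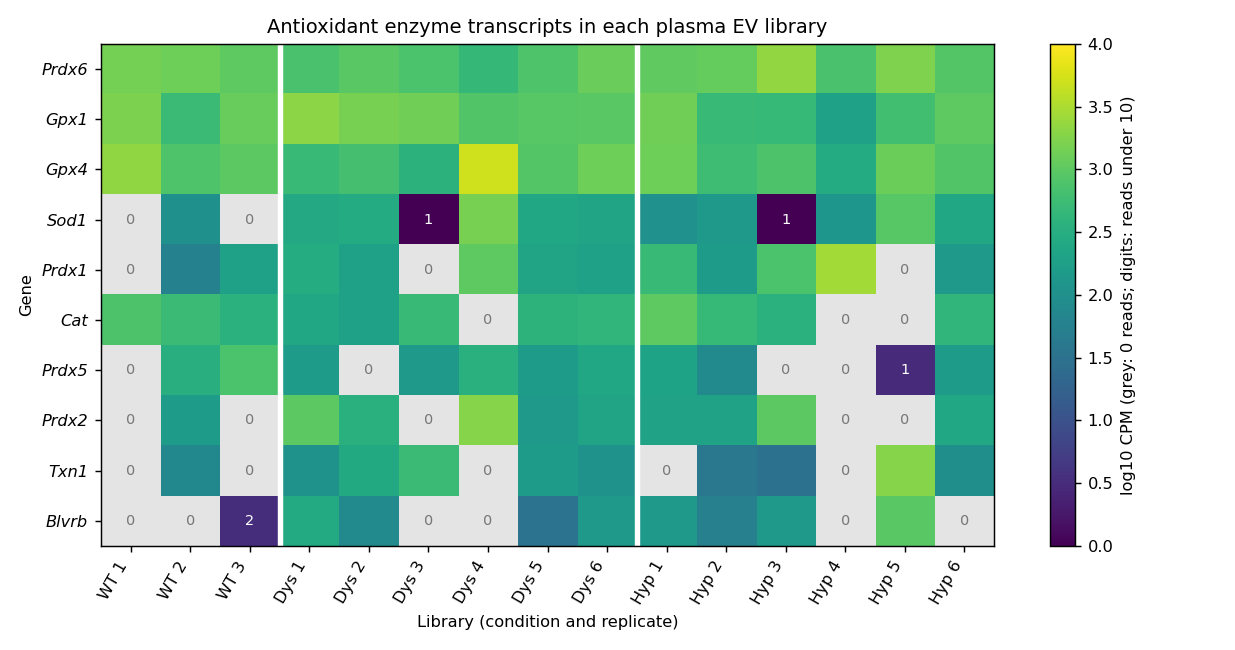
Level of each of the 10 genes in each of the 15 libraries, as log10 CPM by color, with WT, dystrophic (Dys) and hypertrophic (Hyp) replicates side by side. Grey fields held 0 reads, digits give read numbers under 10, and levels under 1 CPM share the darkest color. Prdx6, Gpx1 and Gpx4 fill every library, while the other genes stand at 0 to 2 reads in some libraries and above 30 CPM in the rest.

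The number of the genes present differed between libraries within a condition. All 10 had reads in dystrophic replicates 1, 5 and 6 and in hypertrophic replicate 2, while WT replicate 1 held 4 and hypertrophic replicate 4 held 5. Of the pairs of gene and library, 66.7% held reads in WT-derived EVs, 88.3% in dystrophic-derived EVs and 81.7% in hypertrophic-derived EVs. The 880 genes within the range of mean levels of the 10, not matched for level within it, gave 73.4%, 84.2% and 75.3%. Presence was compared for each gene with a two-sided Fisher's exact test, adjusted over all genes with reads in the conditions compared. No gene passed in any comparison, the 10 included (0% of 12335 genes for dystrophic against WT, of 10102 for hypertrophic against WT and of 12978 for hypertrophic against dystrophic). At an unadjusted p under 0.05 there were 75, 18 and 25 genes (0.608%, 0.178% and 0.193%), none of the 10 among them. The smallest p of the 10 genes belonged to Sod1, with reads in 6 of 6 dystrophic-derived and 6 of 6 hypertrophic-derived libraries against 1 of 3 WT-derived ones (Fisher's exact test, p = 0.0833 for each, adjusted p = 1). Without WT replicate 2, the only WT-derived library with Sod1, it had p = 0.0357 by the same exact test in both comparisons and was again not called. Over all genes, 31 of 11996 and 17 of 9339 then had an unadjusted p under 0.05. In WT replicate 1 the limit of 110 CPM lay above the 103 CPM of Sod1 in WT replicate 2. A single read counted as presence of Sod1 in dystrophic replicate 3 and in hypertrophic replicate 3. With at least 5 reads required, the smallest p of the 10 genes against WT was 0.167 by the same test in both comparisons. The smallest p the test allows is 0.0119 for 6 libraries against 3 and 0.00216 for 6 against 6. With so many genes tested, a gene at this limit passes the adjustment only if many others reach it too. That 0 genes were called therefore says little about presence.

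Among the peroxiredoxins, Prdx6 was present most evenly. Prdx6 (ENSMUSG00000026701.15, chromosome 1 from 161240112 to 161251219 of mm10) encodes the peroxiredoxin that uses glutathione and also reduces phospholipid peroxides. Its level was 1469, 1297 and 1031 CPM in the 3 WT-derived libraries. It ranged from 466 to 1234 CPM (median 768) in dystrophic-derived and from 698 to 2262 CPM (median 1099) in hypertrophic-derived EVs. The lowest WT-derived library lay above 5 of the 6 dystrophic-derived ones, but the ranges of all 3 conditions overlapped. Over the 15 libraries its level spanned 4.86-fold, with a coefficient of variation of 0.418, the smallest of the 10 genes.

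Prdx1 and Prdx2 encode cytosolic peroxiredoxins that thioredoxin recharges, and Prdx2 is among the most abundant proteins of red blood cells. Prdx1 (ENSMUSG00000028691.12, chromosome 4 from 116685544 to 116700822) stood at 0, 57.9 and 191 CPM in WT-derived EVs. It ranged from 0 to 1027 CPM (median 205) in dystrophic-derived and from 0 to 2749 CPM (median 337) in hypertrophic-derived EVs. Its highest values, in dystrophic replicate 4 and hypertrophic replicate 4, carried much of the means, which were 323 and 718 CPM with them and 182 and 312 CPM without them. Prdx2 (ENSMUSG00000005161.15, chromosome 8 from 84969587 to 84974834) stood at 0, 156 and 0 CPM in WT-derived EVs. It ranged from 0 to 1900 CPM (median 285) in dystrophic-derived and from 0 to 984 CPM (median 202) in hypertrophic-derived EVs. The WT-derived values lay inside both ranges. Dystrophic replicate 4, with the highest Prdx2 level, also had the highest sum of erythroid markers, 159167 CPM, while dystrophic replicate 3, with 0 reads of Prdx2, had the lowest sum of the dystrophic-derived libraries, 47981 CPM. Other libraries did not follow this order. Dystrophic replicate 2 had less Prdx2 than replicate 1 (352 against 974 CPM) at a higher erythroid sum (130537 against 88871 CPM), and Prdx2 had 0 reads in hypertrophic replicate 5 and WT replicate 3 at sums of 76371 and 63798 CPM. The part of red blood cell RNA in these levels was not tested. The exons of Prdx2 share 177 bases with Rnaseh2a and 173 bases with Junb on the other strand, and a strand setting of the counting is not given in the sources used here, so reads in these stretches cannot be told apart.

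Prdx5 (ENSMUSG00000024953.17, chromosome 19 from 6906697 to 6910106) encodes a peroxiredoxin found in mitochondria, peroxisomes and cytosol. It had 0, 330 and 748 CPM in WT-derived EVs, from 0 to 349 CPM (median 156) in dystrophic-derived and from 0 to 207 CPM (median 41.5) in hypertrophic-derived EVs. Its highest library was thus WT replicate 3, and the ranges all began at 0 and overlapped. Its mean was 359 ± 375 CPM (n = 3) for WT, 173 ± 116 CPM (n = 6) for dystrophic and 74.5 ± 90.0 CPM (n = 6, SD) for hypertrophic mice, differences within the spread of the WT-derived libraries. Without WT replicate 3 the WT mean was 165 CPM, below the dystrophic mean, and without hypertrophic replicate 1 the hypertrophic mean was 48.0 CPM. Its exons share 409 bases with Trmt112 on the other strand, which held up to 404 CPM, in WT replicate 1, where Prdx5 had 0 reads. The rows of the annotated copies Prdx2-rs3, Prdx6-ps2, Prdx6b and Txn-ps1 were at 0 in every library, and how reads shared with such copies were counted is not given in the sources used here.

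The glutathione peroxidases were both in every library. Gpx1 encodes the main cytosolic glutathione peroxidase, a selenoprotein that reduces hydrogen peroxide. Gpx1 (ENSMUSG00000063856.7, chromosome 9 from 108338903 to 108340343) had 1616, 532 and 1184 CPM in WT-derived EVs, from 830 to 1991 CPM (median 1170) in dystrophic-derived and from 197 to 1343 CPM (median 562) in hypertrophic-derived EVs. Of the hypertrophic-derived libraries, 4 lay below the lowest dystrophic-derived one, and replicates 1 and 6 lay within the dystrophic range. Its lowest level was in hypertrophic replicate 4.

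Gpx4 encodes the selenoprotein that reduces lipid peroxides within membranes and so holds back ferroptosis. Gpx4 (ENSMUSG00000075706.10, chromosome 10 from 80047166 to 80056439) had 2167, 801 and 986 CPM in WT-derived EVs. Its level ranged from 376 to 5112 CPM (median 753) in dystrophic-derived and from 290 to 1300 CPM (median 793) in hypertrophic-derived EVs. The medians of these conditions were close, and the higher mean of dystrophic-derived EVs (1472 ± 1813 CPM against 839 ± 396, SD, n = 6 each) rested on dystrophic replicate 4, without which it was 744.5 CPM. That library again was the one with the highest sum of erythroid markers, and with 1103 genes it held the fewest genes of the dystrophic-derived libraries. A role of either in this level was not tested.

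**Figure D2:**
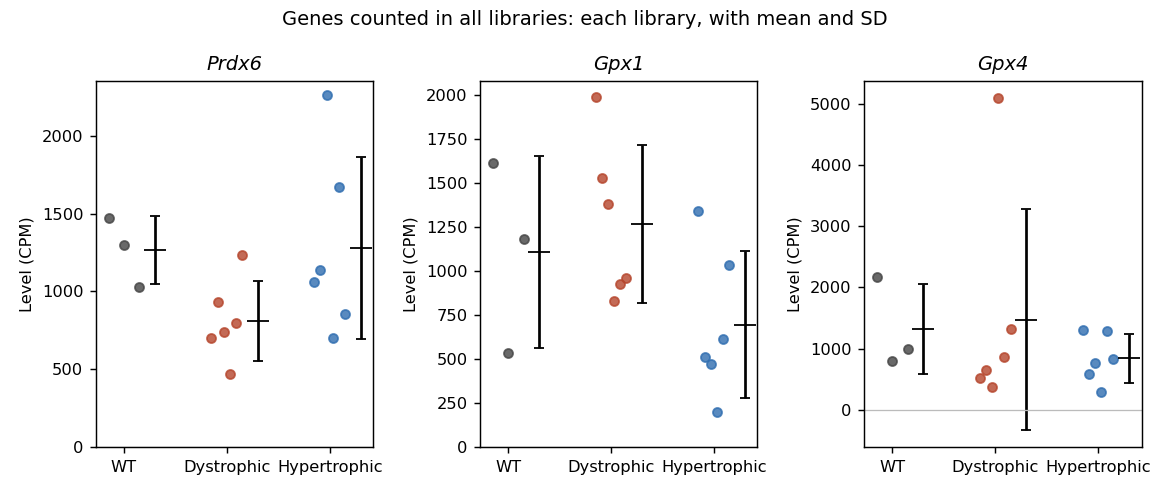
CPM of Prdx6, Gpx1 and Gpx4, the genes counted in all libraries, with 1 point for each library and the mean ± SD of each condition beside the points (WT n = 3, dystrophic n = 6, hypertrophic n = 6). The points of the conditions overlap for each gene, and the single point at 5112 CPM of Gpx4 is dystrophic replicate 4.

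Catalase breaks down hydrogen peroxide in peroxisomes and, in red blood cells, in the cytosol. Cat (ENSMUSG00000027187.10, chromosome 2 from 103453849 to 103485160) was in each WT-derived library, at 771, 528 and 354 CPM. It ranged from 0 to 494 CPM (median 317) in dystrophic-derived and from 0 to 1005 CPM (median 396) in hypertrophic-derived EVs. It was at 0 in dystrophic replicate 4 and hypertrophic replicates 4 and 5. In dystrophic replicate 4 the limit was 1.86 CPM, against at least 197 CPM in each library where Cat was counted, so that the library with the highest Gpx4 and Prdx2 held no detectable Cat.

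Sod1 (ENSMUSG00000022982.10, chromosome 16 from 90220754 to 90226329) encodes the copper and zinc superoxide dismutase of the cytosol. It had 0, 103 and 0 CPM in WT-derived EVs, from 0.373 to 1504 CPM (median 251) in dystrophic-derived and from 0.525 to 916 CPM (median 136) in hypertrophic-derived EVs. The lowest value of both conditions was a single read, in dystrophic replicate 3 and hypertrophic replicate 3. The WT-derived values lay below the medians of both other conditions and overlapped with their lower values.

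Txn1 (ENSMUSG00000028367.5, chromosome 4 from 57943373 to 57956411) encodes thioredoxin, the small protein that passes electrons to peroxiredoxins. It had 0, 72.6 and 0 CPM in WT-derived EVs, from 0 to 532 CPM (median 140) in dystrophic-derived and from 0 to 1868 CPM (median 35.8) in hypertrophic-derived EVs. Its mean in hypertrophic-derived EVs, 340 ± 749 CPM (SD, n = 6), was set by replicate 5 and was 34.2 CPM without it. Hypertrophic replicate 1 had 0 reads of Txn1 among 5120128 reads on genes, a limit of 0.586 CPM, where every library with Txn1 held at least 31.5 CPM.

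Blvrb (ENSMUSG00000040466.16, chromosome 7 from 27447978 to 27466144) encodes biliverdin reductase B, a flavin reductase abundant in red blood cells. It was the gene of the 10 found least often. WT-derived EVs held 0, 0 and 2 reads, which gave 0, 0 and 3.32 CPM. It ranged from 0 to 274 CPM (median 58.5) in dystrophic-derived and from 0 to 940 CPM (median 96.8) in hypertrophic-derived EVs. Each of these conditions also had 2 libraries with 0 reads, so the ranges overlapped with WT. Hypertrophic replicate 6 had none among 6461652 reads, a limit of 0.464 CPM, and WT replicate 2 none among 7738568 reads, a limit of 0.388 CPM.

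Levels of different genes were compared per kilobase of exon, with the union of all annotated exons as the length. Gpx1 and Gpx4 had the highest mean CPM per kb of the 10 genes in each condition. Gpx1 stood at 771 ± 379 CPM per kb in WT-derived (n = 3), 881 ± 312 in dystrophic-derived (n = 6) and 483 ± 290 in hypertrophic-derived EVs (n = 6, SD), and Gpx4 at 765 ± 430, 854 ± 1052 and 486 ± 230 CPM per kb. In WT-derived EVs, Prdx6 followed at 263 ± 46.0 CPM per kb, the only step between neighbors in the order that was larger than the SD of both genes, and it lay within that SD when coding transcripts gave the length (1374 ± 773 and 756 ± 132 CPM per kb). In dystrophic-derived EVs Prdx2 followed at 196 ± 237, and in hypertrophic-derived EVs Txn1 at 323 ± 713 CPM per kb. Both rested on 1 library each, with 110 CPM per kb for Prdx2 without dystrophic replicate 4 and 32.5 for Txn1 without hypertrophic replicate 5. The remaining order did not stand out from the spread between libraries. With the median length of coding transcripts in place of the exon union, Gpx1 and Gpx4 were again the highest in each condition, followed by Prdx6 in WT-derived, Sod1 in dystrophic-derived and Prdx6 in hypertrophic-derived EVs, but Sod1 moved from place 9 to place 4 over all libraries and Txn1 from 4 to 9.

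The balance between the families differed most between single libraries. The summed level of Gpx1 and Gpx4 per kb was above that of the 4 peroxiredoxins in 13 of 15 libraries with either gene length, the others being hypertrophic replicates 3 and 4. With the exon union, a glutathione peroxidase led in 12 libraries, while Prdx6 led in hypertrophic replicate 3, Prdx1 in hypertrophic replicate 4 with 65.2% of the summed level of the 10 genes, and Txn1 in hypertrophic replicate 5 with 46.0%. With coding transcripts, Prdx6 led in hypertrophic replicate 2 as well. The ratio of Gpx4 to Gpx1 per kb ran from 0.219 in dystrophic replicate 1 to 5.14 in dystrophic replicate 4, both of the same condition. Together the 10 genes took between 0.338% (hypertrophic replicate 2) and 1.12% (dystrophic replicate 4) of the reads on genes.

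**Figure D3:**
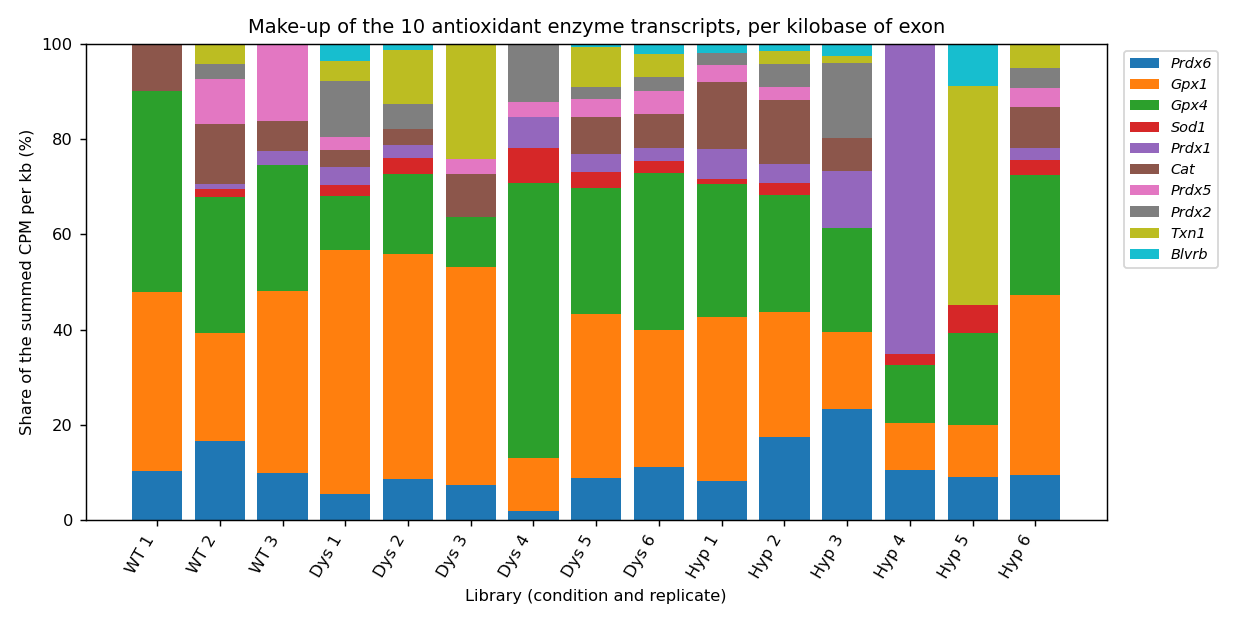
Share of each of the 10 genes in their summed CPM per kb of exon, in percent, with 1 bar for each library. Gpx1 and Gpx4 make up the largest parts of most bars, while Prdx1 takes 65.2% in hypertrophic replicate 4 (Hyp 4) and Txn1 takes 46.0% in hypertrophic replicate 5 (Hyp 5).

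Differences in level between conditions were tested with a quasi-likelihood fit in edgeR. Its filter on low counts kept 6887 genes, all 10 included, and p-values were adjusted over all of them. None of the 10 passed the threshold between dystrophic-derived and WT-derived EVs (0 of 10 called, with 0.0145% of all genes called), between hypertrophic-derived and WT-derived EVs (0 of 10, 0.029%) or between hypertrophic-derived and dystrophic-derived EVs (0 of 10, 0.0145%). At an unadjusted p under 0.05, edgeR gave 2.02%, 8.02% and 12% of all genes and none of the 10. DESeq2, which called 19.1%, 22.2% and 4.69% of the same genes, also called 0 of the 10. In none of the comparisons did the CPM of any of the 10 genes separate the conditions without overlap, against 0.755%, 0.45% and 0.16% of all genes tested. The standard errors (SE) of the log2 fold changes were computed from each fold change and the F value of its test, and are approximate. They were wide, from 0.95 to 3.87, so differences of several-fold were within the error.

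The fitted log2 fold changes of the 10 genes against WT ran from −1.26 (Prdx5) to 5.95 (Blvrb) in dystrophic-derived EVs, with 7 of 10 above 0 and a median of 0.999. The median of all genes tested was 1.38, with 70.1% above 0. In hypertrophic-derived EVs they ran from −2.57 (Prdx5) to 6.28 (Blvrb), with 5 of 10 above 0 and a median of 0.83, against 0.66 and 58.8% over all genes. Between hypertrophic-derived and dystrophic-derived EVs they ran from −1.30 (Prdx5) to 0.45 (Prdx1), with 5 of 10 above 0 and a median of −0.46, against −0.52 and 37.4% over all genes. The directions in this last comparison depended on the 6 libraries of crossed numbers, since 5 of the 10 (Prdx5, Prdx6, Gpx4, Cat and Sod1) changed sign with them exchanged and 3 (Gpx4, Cat and Sod1) with them left out. The medians moved with the scaling, the filter and the libraries in the fit. Without TMM scaling they were 1.05, 1.16 and −0.17 for the 10 genes and 1.55, 1.002 and −0.36 for all genes. With only the conditions compared in the fit they were 0.996, 0.84 and −0.33 for the 10 genes and 0.90, 0.27 and −0.21 for all genes, so that for dystrophic against WT the median of the 10 genes lay below that of all genes with all libraries in the fit and above it here. Without WT replicate 2 the medians for dystrophic and hypertrophic against WT were 0.82 and 0.81 for the 10 genes and 8.15 and 5.96 for all genes. Both comparisons against WT share the 3 WT-derived libraries.

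The gene of the 10 with the smallest p was a different one in each comparison. For Prdx2 in dystrophic-derived against WT-derived EVs, the log2 fold change was 3.20 (SE 2.04, adjusted p = 0.433 by edgeR), with 5 of 6 libraries having reads against 1 of 3. Without WT replicate 2, the only WT-derived library with Prdx2, the fitted log2 fold change was 14.4, which depends on the prior count, and it did not pass the adjusted threshold. For Blvrb in hypertrophic-derived against WT-derived EVs, the log2 fold change was 6.28 (SE 3.87, adjusted p = 0.430 by edgeR). Over the pooled reads of each condition, Blvrb took 2 of 8367301 reads in WT-derived EVs, 1615 of 20068648 in hypertrophic-derived EVs (a ratio of 337, 95% interval 93.1 to 2782) and 5175 of 43071750 in dystrophic-derived EVs (a ratio of 503, 95% interval 139 to 4152). The intervals cover counting error only. WT replicate 2, with 0 reads of Blvrb, held most of the pooled WT reads, and without it the ratios were 25.3 (7.0 to 209) and 37.8 (10.5 to 312). Dystrophic replicate 6 alone gave 4577 of the 5175 Blvrb reads and 32563362 of the 43071750 reads. With each library weighed alike the order was reversed, with means of 88.6 CPM in dystrophic-derived and 213 CPM in hypertrophic-derived EVs. Without the highest library of each condition they were 51.5 and 67.0 CPM. For Gpx4 in hypertrophic-derived against dystrophic-derived EVs, the log2 fold change was −1.11 (SE 0.95, adjusted p = 0.9998 by edgeR). It was −0.30 without dystrophic replicate 4, and it turned to 1.31 with the 6 libraries of crossed numbers exchanged and to 0.35 with them left out. Within the 9 libraries of the lower number series of the titles, which hold all WT-derived libraries and 3 of each other condition, Gpx4 had a mean of 1318, 516 and 879 CPM in WT-derived, dystrophic-derived and hypertrophic-derived EVs, and 0 of the 10 genes were called in each comparison. The numbers carried by the counts split the libraries by condition, with all 6 hypertrophic-derived ones and no other in the higher series, so that this series and the hypertrophic condition cannot be told apart.

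**Figure D4:**
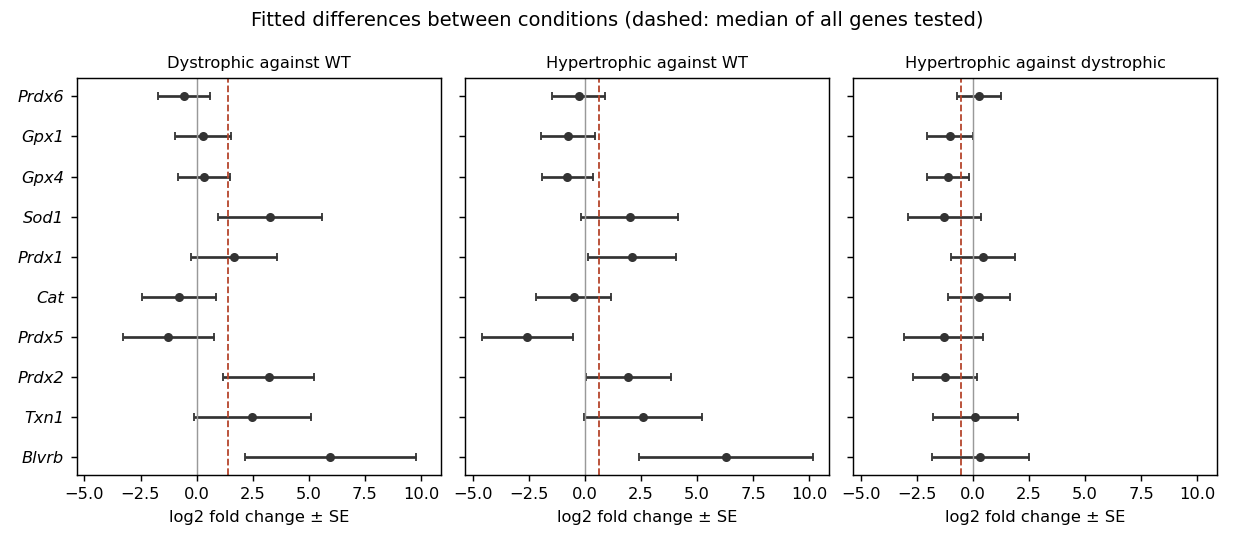
Log2 fold change from edgeR ± approximate SE, computed from the fold change and its F value, for each of the 10 genes in the 3 comparisons. The solid line marks no difference and the dashed line the median of all genes tested (1.38, 0.66 and −0.52). No gene passed the threshold, and the widest bars belong to Blvrb, which had 2 reads in all WT-derived libraries together.

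The 10 genes were set beside 49 further genes of glutathione, thioredoxin, heme and NADPH metabolism and of the oxidative stress response. None of the 49 had reads in every library and 4 had reads in at least 12. Reads were present in 40.5% of their pairs of gene and library, against 81.3% for the 10 genes and 29.0% for all genes with reads, which differ in level. The highest mean over the 15 libraries belonged to Txnip, the inhibitor of thioredoxin, at 420 CPM with reads in 13 libraries. It was followed by Cyb5r3, which keeps hemoglobin reduced, at 321 CPM in 11 libraries, and by Srxn1, which repairs overoxidized peroxiredoxins, at 235 CPM in 11. Gclm, a subunit of the first enzyme of glutathione synthesis, had 179 CPM in 12 libraries, the mitochondrial thioredoxin Txn2 141 CPM in 11, and the glutathione transferase Gstm1 128 CPM in 14. Of the 49 genes, 40 passed edgeR's filter, and 0 were called higher or lower in each comparison, with 2, 6 and 8 at an unadjusted p under 0.05 for dystrophic against WT, hypertrophic against WT and hypertrophic against dystrophic. These are 5%, 15% and 20% of the 40 genes, beside 2.02%, 8.02% and 12% of all genes tested. All of them but Cyb5r3 were at 0 in a whole condition of the comparison, so their fold changes depend on the prior count. Some rested on a single library, such as Mgst3 in hypertrophic-derived EVs. The shares are therefore not read as a difference of these genes from all genes. Their median log2 fold changes were 0.92, 0.19 and −0.12, beside 1.38, 0.66 and −0.52 over all genes.

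For each of the 6 genes with reads in at least 12 libraries, the genes with the most similar pattern were sought among 680 such genes, by the mean absolute difference of log2(CPM + 1) after centering. Prdx6 lay closest to Cox5a, a subunit of cytochrome c oxidase, at 0.24, and to B2m, the light chain of MHC class I, at 0.29, where the median over genes was 2.31. Gpx4 lay closest to Tmsb4x, an actin-binding peptide abundant in platelets and leukocytes, at 0.44, and to Ptpn18, a tyrosine phosphatase, at 0.52. Gpx1 lay closest to Actb at 0.53 and to the ribosomal protein gene Rpl12 at 0.57. These 6 neighbors had reads in all 15 libraries, as Prdx6, Gpx1 and Gpx4 did. The nearest genes of the other 3 lay at larger distances. Cat was closest to Itm2b (0.71) and BC005537 (0.72), Prdx1 to Lamp1 (0.87) and Cflar (0.88), and Sod1 to Capza2 (1.05) and Ghitm (1.45).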

How the data were processed

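EV RNA was preamplified and sequenced as single reads, which the authors aligned with TopHat to mm10. They deposited raw counts of reads for each gene symbol and library, with HTSeq and DESeq named in their processing notes. The annotation and the strand setting are not given in the sources used here, and the labels and methods name different library kits. The 5 summary rows of each file, which name no gene and held 57.9% to 99.2% of its numbers, were dropped. Positions and lengths came from GENCODE M21.

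Libraries were grouped by their labels, and replicate numbers pair nothing. No pair of libraries was alike within sampling noise. CPM was computed over all gene rows, and SDs are over libraries. Levels were tested with edgeR 4.0.16 in R 4.3.3 (TMM, filterByExpr, quasi-likelihood fit to all 15 libraries, Benjamini-Hochberg adjustment over 6887 genes, threshold 0.05), and presence with Fisher's exact test in Python 3.11.15 (scipy 1.17.1). This fit was also tested on simulated data. DESeq2 1.42.0 ran with default filtering as an alternative, besides other scalings, filters and sets of libraries. Fold changes are given for the gene of the 10 with the smallest p in each comparison, further genes of the pathway by the 6 highest mean CPM, and similar patterns by the 2 nearest genes. The 10 genes, the lists and these rules were chosen with earlier results of these data known.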

Additional observations from a re-analysis of the deposited data

Results flagged for a closer look

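Values that stood apart were sought in the 6 libraries of the dystrophic and of the hypertrophic condition, for each of the 10 genes, by a gap to the nearest library above 0.625 of the range (Dixon's 95% critical value). Of the 20 sets of 6 libraries, 8 held such a value, and all 8 were the highest of their set. Chance gives about 1 in 20 for normally distributed values, which does not hold for these skewed levels with zeros, and the sets share libraries, so the number of such values says nothing more than that single libraries lay high. Dystrophic replicate 4 stood apart in Prdx1 (1027 CPM, the nearest library at 302), Gpx4 (5112 CPM, the nearest at 1321) and Sod1 (1504 CPM, the nearest at 292). Hypertrophic replicate 5 stood apart in Sod1 (916 CPM, the nearest at 237), Txn1 (1868 CPM, the nearest at 99.4) and Blvrb (940 CPM, the nearest at 141). Hypertrophic replicate 4 stood apart in Prdx1 (2749 CPM, the nearest at 744), and hypertrophic replicate 3 in Prdx2 (984 CPM, the nearest at 248). These libraries held few genes, with 1103 in dystrophic replicate 4, 814 in hypertrophic replicate 5, 1373 in hypertrophic replicate 4 and 1967 in hypertrophic replicate 3, and the part of this in their levels was not tested.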

How the results depend on the processing

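In each comparison 0 of the 10 genes were called by edgeR under every alternative run (DESeq2, no TMM, TMMwsp, other filters, only the conditions compared, no mitochondrial and hemoglobin genes, a covariate for the title numbers, the 6 libraries with crossed numbers exchanged or left out, and each library left out), and 0 by Fisher's exact test under its alternatives. For Fisher's exact test this carries little, since it could hardly call a gene with so few libraries. With the 6 libraries left out, 3 libraries remained in each condition, where its p cannot fall under 0.05. At an unadjusted p under 0.05, DESeq2 gave 0 of the 10 for dystrophic against WT, 1 (Blvrb) for hypertrophic against WT and 0 for hypertrophic against dystrophic. Over all genes it gave 1491, 1724 and 773 of 6887. In the same way edgeR without WT replicate 2 gave 2, 3 and 0, beside 73, 248 and 1652 of 8480 genes. Fisher's exact test without that library gave 1 (Sod1) against WT in both comparisons, beside 31 of 11996 and 17 of 9339 genes. WT replicate 2 was the only WT-derived library with Prdx2, Sod1 or Txn1, so these counts are not read as a difference from all genes. The log2 fold change of Gpx4 in hypertrophic-derived against dystrophic-derived EVs reversed from −1.11 to 1.31 with the 6 libraries exchanged, 0.35 with them left out and 0.85 within the lower number series of the titles (an alternative chosen after seeing the data, as were the coding transcript length, the Blvrb ratio without WT replicate 2 and the order without a gene's highest library), and the cause was not tested. With all genes of at least 1 count tested, the medians of all genes were 2.11 for dystrophic against WT and −0.77 for hypertrophic against dystrophic, with 1.18 and −0.65 for the 10 genes. For hypertrophic against WT they were −5.1e-15 for all genes and 0.82 for the 10 genes. With each library left out in turn, the log2 fold change of Gpx4 ran from −1.34 to −0.30, that of Prdx2 in dystrophic-derived against WT-derived EVs from 2.51 to 14.4 and that of Blvrb in hypertrophic-derived against WT-derived EVs from 5.21 to 12.2. Presence ran from 55.0% to 80.0% in WT-derived, 86.0% to 92.0% in dystrophic-derived and 78.0% to 88.0% in hypertrophic-derived EVs. Of 130 mean levels under other settings, 3 moved by more than the SD between libraries: Prdx6 in WT-derived EVs to 1735 CPM without mitochondrial and hemoglobin genes in the total, and, with the 6 libraries exchanged, Prdx6 in dystrophic-derived EVs to 1139 CPM and Gpx4 in hypertrophic-derived EVs to 1614 CPM. Many SDs were as large as the means, so this rule passes over large moves and does not show the other means to be stable. In dystrophic-derived EVs, Gpx4 went from 1472 to 516 CPM with the 6 libraries left out. Sod1 there went from 420 to 133 CPM with them exchanged. Both moves lay within the SD. No paired analysis was possible because the replicate numbers come from accession order and pair no samples.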
